A study of Mus musculus with 5 samples.

Results

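The core circadian clock loop was described here by 8 genes, out of 26369 in the count table. They were picked by symbol from knowledge of the pathway, with earlier results of these data known. They were the activators Arntl, Clock and Npas2 and the repressors Per1, Per2, Per3, Cry1 and Cry2. All 8 were found as single rows of the table and all 8 passed the filter on low counts. Total RNA of the striatum, the forebrain nucleus hit hardest in Huntington's disease, had been depleted of ribosomal RNA and sequenced with strand-specific libraries. The groups were wild-type mice (WT, n = 3 libraries) and R6/1 transgenic mice (n = 2 libraries), whose transgene is exon 1 of the HD gene with a CAG expansion labelled 115. Both groups were on a CBA x C57BL/6 background. The labels give neither the transgene's promoter nor the age, sex, pooling or time of day of collection of the mice.

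The clock is a feedback loop of transcription. BMAL1, the protein of Arntl, pairs with CLOCK or with its paralogue NPAS2, binds E-box sequences and switches on the Per and Cry genes. PER and CRY proteins accumulate, enter the nucleus and repress their own activators, so transcripts of Per genes and of Arntl rise and fall at opposite times of day in many tissues. The labels give no time of day, so a difference in collection time between the groups cannot be told apart from genotype here. NPAS2 is a forebrain paralogue of CLOCK and is abundant in the striatum.

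Library totals were 19630036 to 23046266 counts in WT and 29871306 and 34379064 in R6/1, so each R6/1 library was deeper than each WT library. Members had 590 to 8037 counts per library. Endogenous Htt was at 351 to 358 CPM in WT and at 367 and 372 CPM in R6/1 (edgeR adjusted p = 0.481); the transgene was not measured separately here. As a check of striatal tissue, the markers Ppp1r1b, Drd2, Adora2a, Rgs9 and Pde10a were at 116 CPM or more in every WT library. The lowest of these markers in R6/1 was Adora2a, at 34.5 and 35.2 CPM. Choroid plexus RNA set WT replicates 1 and 2 apart, with Ttr, its defining gene, at 3466 and 3341 CPM against 69.4 CPM in WT replicate 3 and 90.5 and 21.1 CPM in R6/1. All 12 markers of medium spiny neurons, the main striatal cell type, fell in R6/1, and in bulk tissue fewer cells of a type and less RNA per cell cannot be told apart.

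Of the 8 members, 4 were lower in R6/1 (Npas2, Per1, Per2 and Per3), 1 was higher (Cry1), and Arntl, Clock and Cry2 did not pass the test. The test was edgeR's quasi-likelihood F test over 17202 genes with Benjamini-Hochberg adjustment, and a gene was called at an adjusted p below 0.05. It called 22.6% of all tested genes, 12.8% as lower and 9.72% as higher. The R6/1 and WT libraries did not overlap for the 5 called members, against 54.1% of all tested genes. The median log2 fold change of the 8 members was -0.37, and that of all tested genes was -0.0079. Without R6/1 replicate 1, 3 members were called, and also 3 without R6/1 replicate 2. The number called over all genes fell from 3882 to 1152 and 1088 in those fits, and to 2517 without WT replicate 3.

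The promoters of 5 members are shown because they belong to called members with an entry in the table (Npas2, Per1, Per3, Cry1), or because the promoter carries a known clock element (Arntl). They run from 250 bases before the RefSeq start to 50 bases from it on, build GRCm38.p6, 5′ to 3′ on the strand of the gene. Capitals mark the canonical E-box (CACGTG), the D-box (TTATGTAA) or the ROR response element, searched on both strands.
Npas2 promoter, chr1:39194022-39194321 (+ strand): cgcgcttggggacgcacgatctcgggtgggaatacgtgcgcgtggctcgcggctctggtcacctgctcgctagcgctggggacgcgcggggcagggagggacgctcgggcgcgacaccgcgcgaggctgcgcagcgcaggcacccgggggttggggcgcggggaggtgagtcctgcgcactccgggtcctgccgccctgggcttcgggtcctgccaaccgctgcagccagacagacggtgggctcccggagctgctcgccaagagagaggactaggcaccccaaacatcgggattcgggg
Per1 promoter, chr11:69098699-69098998 (+ strand): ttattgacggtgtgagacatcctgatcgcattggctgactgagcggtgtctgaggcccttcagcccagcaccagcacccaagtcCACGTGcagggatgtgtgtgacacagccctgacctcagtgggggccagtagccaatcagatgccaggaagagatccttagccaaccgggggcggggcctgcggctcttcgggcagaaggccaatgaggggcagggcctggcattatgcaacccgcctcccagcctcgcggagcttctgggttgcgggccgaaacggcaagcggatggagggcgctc
Per3 promoter, chr4:151044616-151044915 (- strand): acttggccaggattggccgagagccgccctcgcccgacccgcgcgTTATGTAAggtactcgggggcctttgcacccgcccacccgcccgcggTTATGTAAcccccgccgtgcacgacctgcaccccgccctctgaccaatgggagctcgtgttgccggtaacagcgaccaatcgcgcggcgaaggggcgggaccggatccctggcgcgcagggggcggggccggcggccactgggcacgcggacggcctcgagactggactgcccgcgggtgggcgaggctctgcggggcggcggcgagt
Cry1 promoter, chr10:85185005-85185304 (- strand): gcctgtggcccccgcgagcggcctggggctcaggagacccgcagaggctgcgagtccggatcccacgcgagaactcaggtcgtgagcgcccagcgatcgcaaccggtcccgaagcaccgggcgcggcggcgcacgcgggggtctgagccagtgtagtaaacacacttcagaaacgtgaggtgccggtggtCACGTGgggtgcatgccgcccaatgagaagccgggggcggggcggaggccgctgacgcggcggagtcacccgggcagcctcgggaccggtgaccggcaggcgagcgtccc
Arntl promoter, chr7:113207261-113207560 (+ strand): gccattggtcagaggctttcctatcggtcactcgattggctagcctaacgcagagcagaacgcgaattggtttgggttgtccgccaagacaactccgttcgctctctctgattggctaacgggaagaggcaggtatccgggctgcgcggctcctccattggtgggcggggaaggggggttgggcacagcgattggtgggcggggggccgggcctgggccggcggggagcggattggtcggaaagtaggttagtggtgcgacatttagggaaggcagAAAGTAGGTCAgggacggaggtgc

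Of the 8 members, 7 had a promoter in the RefSeq table, with 11 windows in all, since some genes have several starts. The E-box bound by the activators was found in 2 windows, 166 bases upstream of a Per1 start and 60 bases upstream of the Cry1 start. It occurs in 7.15% of the 32851 promoter windows of the table. Of these 2 genes, Per1 fell and Cry1 rose in R6/1. Only this exact sequence within these windows was searched, and Per2 had no window. A link between the element and the changes was not tested. The Per3 window held 2 copies of the D-box, which binds DBP, TEF and HLF, at 205 and 158 bases upstream; 0.938% of all windows hold at least 1 copy. The ROR response element, read by the REV-ERB and ROR receptors, was found 26 bases downstream of 1 Arntl start and in 0.384% of all windows. The full cAMP response element (TGACGTCA) was in 0 of the 11 windows and in 1.79% of all windows. Its shorter form (TGACG) was in 4 windows, of Per1, Cry1 and Cry2, and in 20.8% of all windows. None of the searched elements was in the Npas2 window. A match describes letters only and is not evidence of binding.

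Npas2 (ENSMUSG00000026077), the partner of BMAL1 that can stand in for CLOCK, had the largest change of the members. Its level in CPM (counts scaled to a fixed library size after TMM normalization) was 67.3, 57.2 and 64.0 in the WT libraries, given here and below in replicate order, against 28.4 and 21.4 for the R6/1 pair. Both R6/1 libraries were below every WT library, and R6/1 replicate 2 was the lower of that pair. The mean was 62.8 ± 5.17 CPM in WT (SD, n = 3) and 24.9 ± 4.93 CPM in R6/1 (SD, n = 2). Npas2 thus had a log2 fold change of -1.33 (SE 0.14, 95% interval -1.66 to -1.01, edgeR adjusted p = 0.00117). Only 4.15% of tested genes had a more negative log2 fold change. The fall was called in each of the 13 alternative settings, with log2 fold changes from -1.55 to -1.14.

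Clock (ENSMUSG00000029238), the paralogue with the same partner, was at 212, 217 and 231 CPM in WT and 223 and 227 CPM in R6/1. The R6/1 values lay inside the range of WT. The log2 fold change was 0.03 (SE 0.07, 95% interval -0.13 to 0.19, edgeR adjusted p = 0.774). Arntl (ENSMUSG00000055116), the shared partner of both, was at 51.3, 60.8 and 43.3 CPM in WT and 44.6 and 49.1 CPM in R6/1, again inside the WT range. Its log2 fold change was -0.14 with a wider interval, from -0.48 to 0.19 (SE 0.14, edgeR adjusted p = 0.493). The activator genes thus differed in what was measured for them: Npas2 passed the test, and for Clock and Arntl the interval spans 0.

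The relation between paralogues can be read within each library, where it does not depend on scaling between libraries. The count of Npas2 divided by that of Clock was 0.317, 0.263 and 0.277 in the WT libraries and 0.128 and 0.0946 in the R6/1 libraries. Every R6/1 ratio was below every WT ratio, and the mean log2 ratio was 1.37 lower (-3.19 ± 0.31 against -1.81 ± 0.14, SD). The count of Arntl over that of Npas2 was 0.762, 1.065 and 0.676 in WT and 1.57 and 2.29 in R6/1. There the mean log2 ratio was 1.21 higher in R6/1. Such count ratios serve to compare groups and are not ratios of transcript level, since the genes differ in length. A two-sided exact permutation test over the libraries gave p = 0.1 for both ratios, the smallest p that 3 against 2 libraries allow, and 0.2 after adjustment over the 6 ratios computed. This test therefore cannot give a p below 0.05 for such a ratio at this number of libraries.

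**Figure D1:**
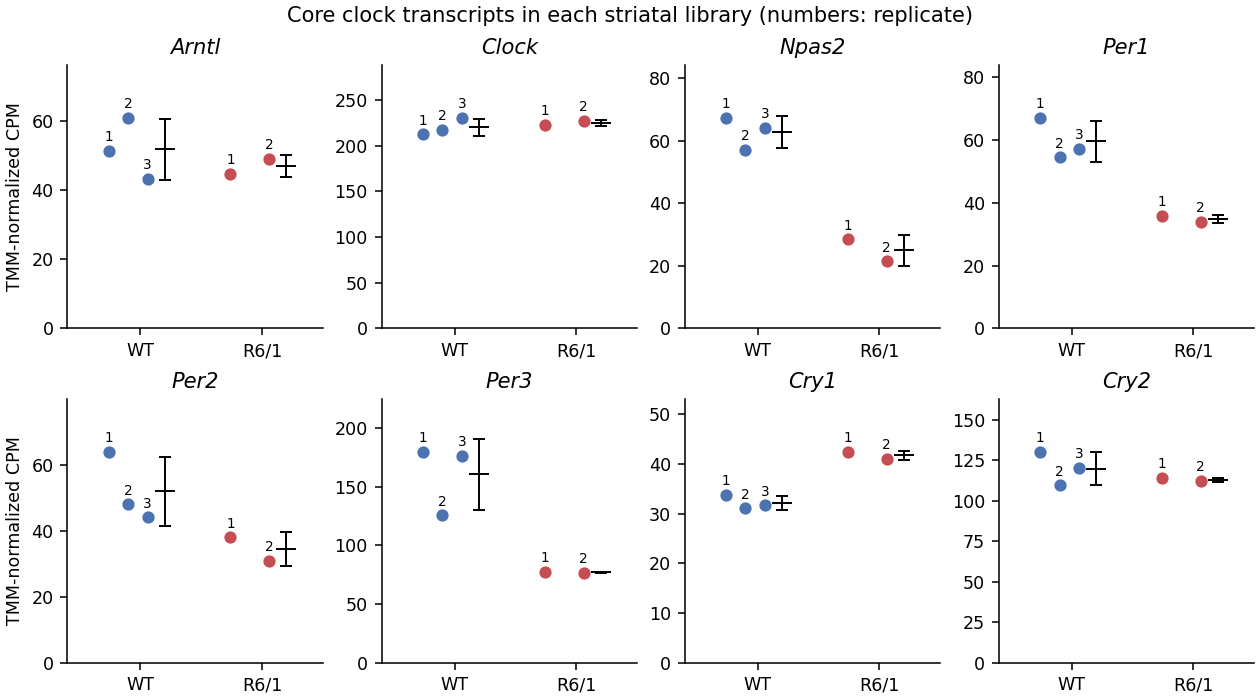
TMM-normalized CPM of the 8 core clock genes in every library, 1 panel a gene with its own axis from 0. Points are libraries numbered by replicate, and dashes with bars are the mean and SD (n = 3 WT, n = 2 R6/1). The groups are separate for Npas2, Per1, Per2, Per3 and Cry1, with Npas2 at 57.2 to 67.3 CPM in WT and 21.4 and 28.4 CPM in R6/1.

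All 3 period genes, the inhibitors whose proteins carry the negative arm of the loop into the nucleus, were called lower in R6/1. Per3 (ENSMUSG00000028957) changed most among them. It was at 180, 126 and 176 CPM in WT and 77.3 and 76.5 CPM in R6/1. WT replicate 2 stood below the other WT libraries, and the R6/1 libraries were close to each other and below all of WT. The means were 160 ± 30.2 CPM (n = 3) and 76.9 ± 0.546 CPM (n = 2). On the log2 scale the change of Per3 was -1.06 (SE 0.16, 95% interval -1.43 to -0.70, edgeR adjusted p = 0.00447). The call was kept in each of the 13 alternative settings, with a highest edgeR adjusted p of 0.0478 without R6/1 replicate 2.

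Per1 (ENSMUSG00000020893), a period gene that is also induced by neuronal activity, was at 67.0, 54.4 and 57.0 CPM in WT and 35.7 and 33.8 CPM in R6/1. The groups did not overlap. Per1 changed by -0.78 on the log2 scale (SE 0.11, 95% interval -1.03 to -0.52, edgeR adjusted p = 0.00383), and it was called in all 13 alternatives, with a highest adjusted p of 0.0473 without R6/1 replicate 2.

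Per2 (ENSMUSG00000055866), whose loss shortens or abolishes behavioural rhythms in mice, was at 63.9, 48.0 and 44.1 CPM in WT and 38.0 and 30.8 CPM in R6/1. WT replicate 1 was the highest library, and the gap between the lowest WT and the highest R6/1 library was the narrowest of the period genes. The log2 fold change was -0.60 (SE 0.17, 95% interval -1.003 to -0.19, edgeR adjusted p = 0.0466), just past the threshold. The call was lost without WT replicate 1 (edgeR adjusted p = 0.0732), without R6/1 replicate 1 (0.102) and without R6/1 replicate 2 (0.260). With both WT replicates 1 and 2 left out, the log2 fold change of Per2 was -0.36 (edgeR adjusted p = 0.123).

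The period genes were also set against each other within a library. The count of Per3 over that of Per2 was 2.81, 2.62 and 3.99 in WT and 2.03 and 2.49 in R6/1, a log2 difference of -0.46 (two-sided exact permutation p = 0.2, adjusted 0.3). That difference was -0.27 without WT replicate 3 and -0.31 without R6/1 replicate 1. Per1 over Per2 was 1.05, 1.13 and 1.29 in WT and 0.940 and 1.098 in R6/1 (two-sided exact permutation p = 0.4, adjusted 0.4). The Per1 to Per2 ratios overlapped between the groups. Per2 over Arntl, a repressor against an activator, was 1.245, 0.789 and 1.02 in WT and 0.852 and 0.627 in R6/1, with overlap (two-sided exact permutation p = 0.3, adjusted 0.36). With 1 library left out, the log2 difference ranged from -0.30 (without R6/1 replicate 2) to -0.07 (without R6/1 replicate 1) for Per1 over Per2, in place of -0.18. For Per2 over Arntl, it ranged from -0.67 (without R6/1 replicate 1) to -0.23 (without R6/1 replicate 2), in place of -0.45.

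Of the cryptochromes, which bind CLOCK and BMAL1 and repress them, 1 was called higher and the other was not called. Cry1 (ENSMUSG00000020038) was at 33.7, 31.1 and 31.7 CPM in WT and 42.4 and 41.0 CPM in R6/1. Both R6/1 libraries were above every WT library. Its means were 32.2 ± 1.39 CPM (n = 3) and 41.7 ± 0.976 CPM (n = 2), which is 1.30-fold higher in R6/1. The log2 fold change was 0.38 (SE 0.08, 95% interval 0.19 to 0.56, edgeR adjusted p = 0.0171). The call was lost without WT replicate 3 (edgeR adjusted p = 0.0562), R6/1 replicate 1 (0.117) or R6/1 replicate 2 (0.0896), while the log2 fold change stayed between 0.35 and 0.41 with any 1 library left out.

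Cry2 (ENSMUSG00000068742) was at 130.0, 109 and 120.0 CPM in WT and 114 and 112 CPM in R6/1, inside the WT range. The log2 fold change was -0.09 (SE 0.09, 95% interval -0.29 to 0.12, edgeR adjusted p = 0.512), and it was 0.03 without normalization. The count of Cry1 over that of Cry2 was 0.260, 0.284 and 0.264 in WT and 0.373 and 0.367 in R6/1. These ratios did not overlap, and the mean log2 ratio was 0.46 higher in R6/1 (two-sided exact permutation p = 0.1, the smallest possible, adjusted 0.2).

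**Figure D2:**
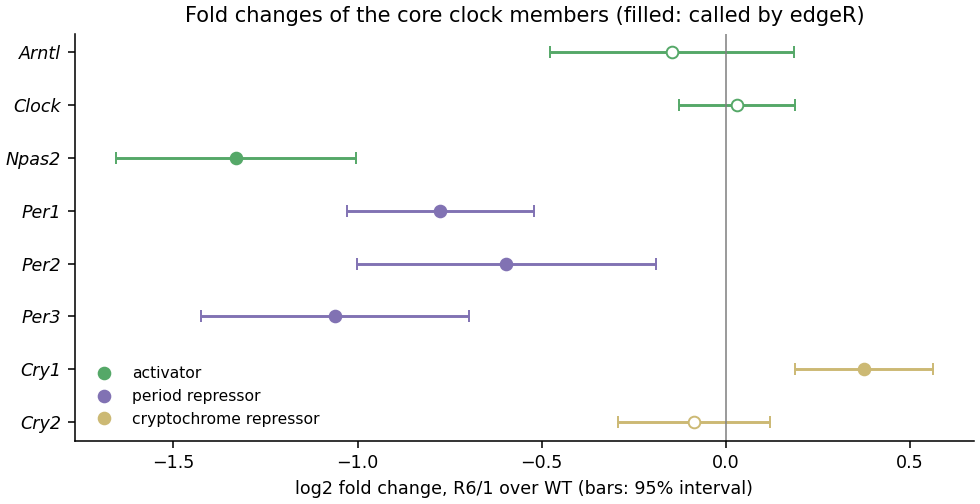
Log2 fold change of R6/1 over WT for each core clock gene (x axis) with its 95% interval as a bar, coloured by role. Filled points were called by edgeR: Npas2 at -1.33, the period genes from -1.06 to -0.60 and Cry1 at 0.38, while the bars of Arntl, Clock and Cry2 cross 0.

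The authors' deposited table lists the same 5 members with an adjusted p below 0.05. In the authors' deposited table the log2 fold change was -1.27 for Npas2 (adjusted p = 3.985e-14), -0.55 for Per2 (adjusted p = 0.0351) and 0.39 for Cry1 (adjusted p = 5.993e-07). For Clock, Arntl and Cry2 the authors' deposited table gives adjusted p-values of 0.722 to 0.752.

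Levels can be compared between genes only per length, and the outcome turned on the length used for Npas2. In the deposited signal per kb, Npas2 was the highest member in WT at 3265 ± 263 per kb (SD, n = 3), above Cry2 at 1421 ± 119. That signal divides by 484 bases for Npas2, which equals the length of a short GENCODE M21 transcript, Npas2-203, whereas its longest coding transcript has 4236 bases. For 4 of the 8 members (Npas2, Per1, Per3 and Cry2) the deposited length equals the median over the GENCODE M21 transcripts of the gene. GENCODE M21 is on GRCm38 and the submitters' notes name mm9, so only lengths were compared.

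With the longest coding transcript as length, a choice made after that value was seen, the order in WT was Cry2, Per3, Clock, Arntl, Npas2, Per1, Cry1 and Per2. Cry2 stood at 758 ± 63.5 normalized counts per kb, Npas2 at 373 ± 30.1 and Per2 at 224 ± 44.7 (SD, n = 3). The WT libraries of neighbours in that order overlapped between Cry2 and Per3, Per3 and Clock, Arntl and Npas2, Npas2 and Per1, and Cry1 and Per2. In R6/1 the order was Cry2, Clock, Arntl, Cry1, Per3, Per1, Per2 and Npas2. There only Per2 and Npas2 overlapped, at 150.0 ± 21.9 and 149.8 ± 29.2 per kb (SD, n = 2). By this length, Cry1 moved from the seventh place to the fourth, and Npas2 from the fifth to the last. By the deposited length, Cry1 had rank 7 in WT and 6 in R6/1, and Npas2 had rank 1 in WT and 2 in R6/1. The fold changes between groups do not depend on the length.

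**Figure D3:**
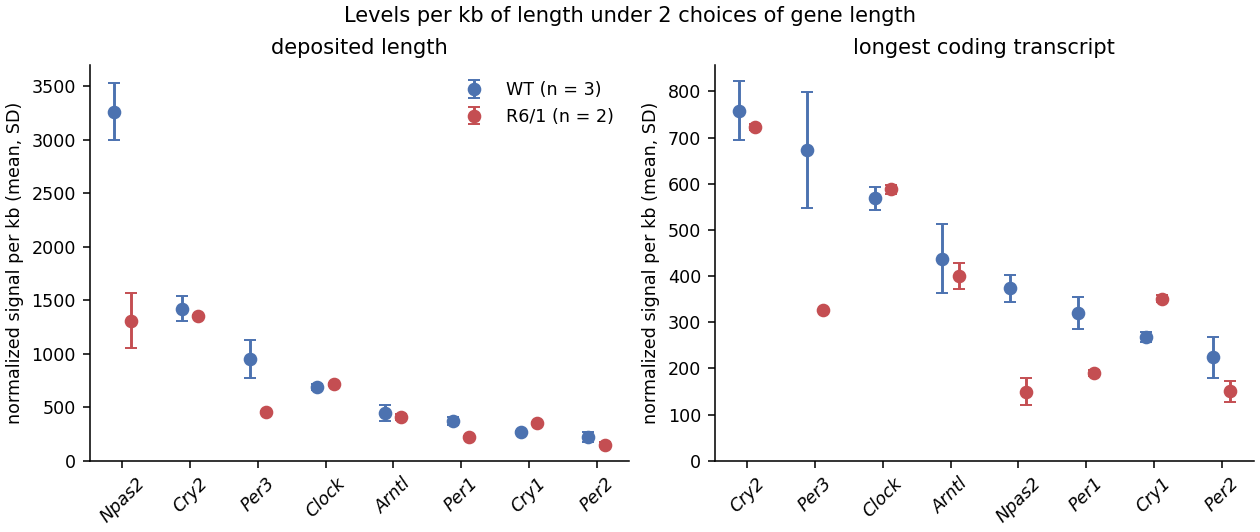
Normalized counts per kb (y axis, from 0, mean with SD) of the 8 genes in WT (n = 3) and R6/1 (n = 2), with the deposited gene length on the left and the longest coding transcript on the right. Npas2 is the highest gene in WT on the left, at 3265 per kb, and stands at 373 per kb, between Arntl and Per1, on the right.

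No stretch of 50 bases was common to the transcripts of any of the 28 pairs of members, and also none of 25 bases. In GENCODE M21, Cry2 shares 295 exonic bases with the antisense gene D930015M05Rik, which had at most 2 counts in any library. Arntl shares 33 exonic bases with the antisense gene Gm45355, which was not analysed here. Whether the counting used strand is not stated in the labels or notes.

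The genes around the core loop were read from 7 lists by role, 38 genes in all, which were chosen with earlier results of these data known. Of the 38, 14 fell, 6 rose and 18 did not pass (edgeR), against 12.8% and 9.72% of all tested genes. Without normalization, which moved the median of all genes up by 0.12 on the log2 scale, 10 fell and 9 rose, and over all genes 1694 fell and 3237 rose in place of 2210 and 1672. The median log2 fold change of the 38 was -0.07. With 1 library left out, 10 fell and 2 rose without WT replicate 1, and 9 fell and 2 rose without WT replicate 3. Without R6/1 replicate 1, 7 fell and the rises all lost their call, and the same counts held without R6/1 replicate 2. Calls over all genes dropped in these fits as well. There 1729 fell and 935 rose without WT replicate 1, and 1682 and 835 without WT replicate 3. For R6/1, 872 fell and 280 rose without replicate 1, and 776 and 312 without replicate 2.

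Of 5 nuclear receptors of the second loop, in which REV-ERB proteins repress Arntl and ROR proteins activate it, 3 fell and 2 did not pass. Nr1d1, which encodes REV-ERB alpha, was at 40.2, 40.7 and 40.2 CPM in WT and 16.7 and 14.5 CPM in R6/1. The fall of -1.37 on the log2 scale (SE 0.09, edgeR adjusted p = 0.000253) held in all 13 alternatives. Nr1d2, for REV-ERB beta, fell by 0.34 on the log2 scale (edgeR adjusted p = 0.0374). The Nr1d2 call was lost without WT replicate 1, 2 or 3 (edgeR adjusted p = 0.0674, 0.0541 and 0.0886) or R6/1 replicate 1 (0.213), where its log2 fold change was -0.21; it was -0.22 without normalization. Rora, the most abundant ROR gene by counts, had a log2 fold change of -0.05 (SE 0.09, edgeR adjusted p = 0.724).

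Of 4 genes listed as PAR bZIP outputs of the loop and their repressor, 3 fell and 1 rose. The 3 that fell were the PAR bZIP factors Dbp, Tef and Hlf, which act through the D-box. For each of them both R6/1 libraries lay below all of WT. Dbp was at 119, 103 and 110 CPM in WT and 37.9 and 44.0 CPM in R6/1 (log2 fold change -1.44, SE 0.10, edgeR adjusted p = 0.000293). Tef was at 761, 574 and 716 CPM in WT and 307 and 338 CPM in R6/1 (-1.08, SE 0.13, edgeR adjusted p = 0.00194). Hlf had a log2 fold change of -1.01 (SE 0.10, edgeR adjusted p = 0.00100). These calls held in all 13 alternatives. Nfil3, a repressor at the D-box and named after its values were seen, rose from 3.58, 4.27 and 3.61 CPM to 5.77 and 5.90 CPM (log2 fold change 0.61, SE 0.17, edgeR adjusted p = 0.0415). That call did not hold without WT replicate 1 or 3 (edgeR adjusted p = 0.107 and 0.110) or R6/1 replicate 1 or 2 (0.165 and 0.188).

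Of 5 genes grouped here as further repressors or genes linked to them, 3 fell and 2 did not pass. Ciart, listed as Gm129 in the file and known to repress CLOCK and BMAL1, was at 25.4, 14.9 and 19.3 CPM in WT and 4.60 and 6.95 CPM in R6/1. It fell 3.45-fold (log2 fold change -1.79, SE 0.27, edgeR adjusted p = 0.00529) and held in all 13 alternatives. Bhlhe40 and Bhlhe41, which compete at the E-box, fell by 0.87 and 0.43 on the log2 scale (edgeR adjusted p = 0.0149 and 0.0368). The Bhlhe40 call was lost without R6/1 replicate 1 or 2 (edgeR adjusted p = 0.112 and 0.0747). The Bhlhe41 call was lost without WT replicate 1 or 3 (edgeR adjusted p = 0.0866 and 0.0530) or R6/1 replicate 1 or 2 (0.0556 and 0.225). Tipin had a log2 fold change of 0.05 (edgeR adjusted p = 0.808). Arntl2, the paralogue of Arntl, ranged from 6.05 to 8.75 CPM in WT and stood at 9.60 and 4.17 CPM in R6/1, on both sides of WT (log2 fold change -0.12, SE 0.34, edgeR adjusted p = 0.826).

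**Figure D4:**
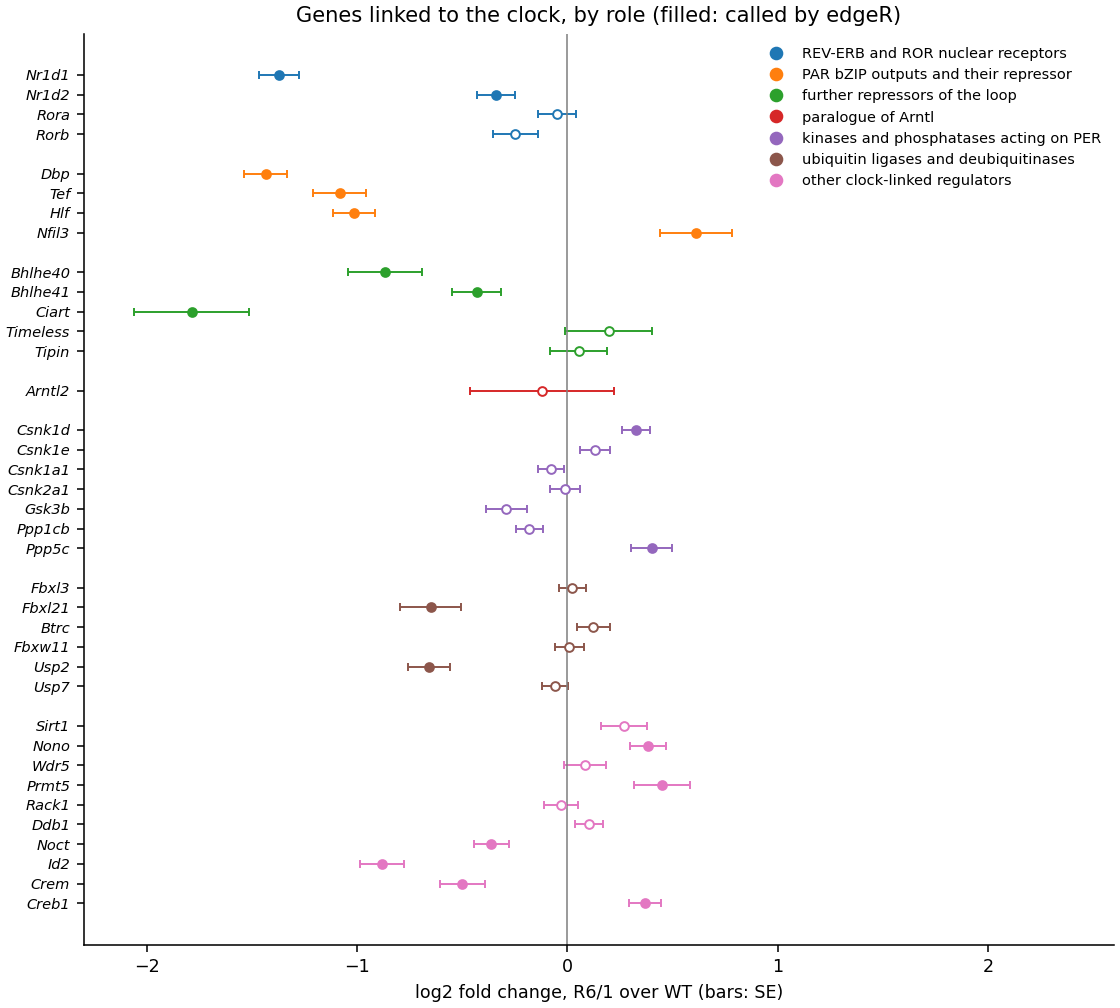
Log2 fold change of R6/1 over WT (x axis, bars are SE) for genes linked to the clock, coloured by role, with filled points for edgeR calls. The PAR bZIP factors lie between -1.44 and -1.01 and Nr1d1 at -1.37, and the called kinase and phosphatase genes Csnk1d and Ppp5c at 0.33 and 0.40.

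Of 7 kinases and phosphatases acting on PER, which help to set how long the protein lasts, 2 rose and 5 did not pass. Csnk1d, which phosphorylates PER proteins, was at 99.1 to 103 CPM in WT and at 127 and 126 CPM in R6/1 (log2 fold change 0.33, SE 0.07, edgeR adjusted p = 0.0142). Leaving out R6/1 replicate 1 or 2 ended the Csnk1d call (edgeR adjusted p = 0.0990 and 0.0916). Ppp5c rose by 0.40 (edgeR adjusted p = 0.0269), and the call was lost without WT replicate 1 or 3 (edgeR adjusted p = 0.0732 and 0.0800) or R6/1 replicate 1 or 2 (0.130 and 0.139). Csnk1a1 had a log2 fold change of -0.08 (edgeR adjusted p = 0.401).

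Of 6 ubiquitin ligases and deubiquitinases, 2 fell and 4 did not pass. Usp2, a deubiquitinase with rhythmic expression, fell by 0.66 (SE 0.10, edgeR adjusted p = 0.00517), and Fbxl21, a ligase for CRY, fell by 0.65 (SE 0.14, edgeR adjusted p = 0.0199). The Usp2 call was lost without R6/1 replicate 2 (edgeR adjusted p = 0.0588). The Fbxl21 call was lost without WT replicate 3 (edgeR adjusted p = 0.0526) or R6/1 replicate 1 or 2 (0.109 and 0.121). Usp7 had a log2 fold change of -0.06 (edgeR adjusted p = 0.540).

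Of 10 other regulators linked to the clock, 3 rose, 3 fell and 4 did not pass. Id2, an inhibitor of helix-loop-helix factors, was at 44.4 to 50.4 CPM in WT and 28.1 and 23.9 CPM in R6/1 (log2 fold change -0.88, SE 0.11, edgeR adjusted p = 0.00207), and held in all 13 alternatives. The cAMP-responsive factors went apart: Crem fell by 0.50 (edgeR adjusted p = 0.0180), while Creb1 rose by 0.37 (edgeR adjusted p = 0.0147). The Crem call was lost without WT replicate 1 (edgeR adjusted p = 0.0516) or R6/1 replicate 1 or 2 (0.110 and 0.110), and the Creb1 call without R6/1 replicate 1 or 2 (0.0659 and 0.117). Ddb1 had a log2 fold change of 0.10 (edgeR adjusted p = 0.313).

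The genes whose profile over the 5 libraries was closest to a member were found by Euclidean distance between log2 CPM profiles, each centred on its own mean. Closest to Npas2 were Ccdc42 (distance 0.08), Ldhd (0.11) and Synpo2 (0.17), against a median distance of 1.56 over all named tested genes. Synpo2, for example, was at 21.9, 17.3 and 21.4 CPM in WT and 9.57 and 7.55 CPM in R6/1. Ccdc42 was low, with 37, 26 and 34 counts in WT and 24 and 14 counts in R6/1. Closest to Cry1 were Ikzf5 (0.03), Pfas (0.04) and Bet1 (0.05), against a median of 0.58. These genes differ between the groups as the member does, and the 5 libraries fall into only 2 groups.

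Markers of several cell types moved with the groups. The 12 medium spiny neuron markers had a summed level of 7391 to 8566 CPM in WT and 2085 and 2156 CPM in R6/1, with all 12 called lower. Of 8 astrocyte markers, 4 fell, 1 (Gfap) rose and 3 did not pass. Their sums were 4670 to 4833 CPM in WT and 3280 and 3361 CPM in R6/1. Most of each sum was Slc1a2 alone, at 3143 to 3480 CPM in WT and 2167 and 2258 CPM in R6/1. The part of these cell types in the clock results was not tested. Of 8 oligodendrocyte markers 3 fell, with sums of 4873 to 6761 CPM and 4715 and 4888 CPM. Microglial sums were 310 to 367 and 313 to 342 CPM, and endothelial sums 200 to 223 and 220 to 230 CPM. Of their 8 markers each, edgeR called 0 in either list, where 0 and 2 had an unadjusted p below 0.05, DESeq2 called 0 and 2, and limma-voom 0 and 0.

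Tissue next to the striatum differed between WT libraries. Choroid plexus markers summed to 3668 and 3587 CPM in WT replicates 1 and 2, but to 98.3 CPM in WT replicate 3 and 126 and 46.0 CPM in R6/1. Of the 8, edgeR called 4 lower, DESeq2 called 5 and limma-voom 0. All 8 had an unadjusted edgeR p below 0.05. Cortical markers summed to 98.5, 308 and 222 CPM in WT and 152 and 98.1 CPM in R6/1, with 1 of 8 called; their defining gene Slc17a7 was at 22.6, 136 and 82.0 CPM in WT and 50.0 and 18.4 CPM in R6/1. No marker of any of the 7 lists was at 0 counts in a library. With the choroid plexus level as a covariate, the falls of Npas2 (-1.29), Per1 (-0.70) and Per3 (-1.21) were still called (edgeR adjusted p = 0.0147, 0.0402 and 0.0218). Per2 (-0.31, edgeR adjusted p = 0.355) and Cry1 (0.41, edgeR adjusted p = 0.0880) were not called in that fit. Bhlhe40 and Bhlhe41 were at -0.59 and -0.28 with the choroid plexus covariate and were not called (edgeR adjusted p = 0.138 and 0.264). With the cortical level as a covariate, all 5 members kept their call, with log2 fold changes of -1.34, -0.83, -0.66, -1.14 and 0.35 for Npas2, Per1, Per2, Per3 and Cry1.

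**Figure D5:**
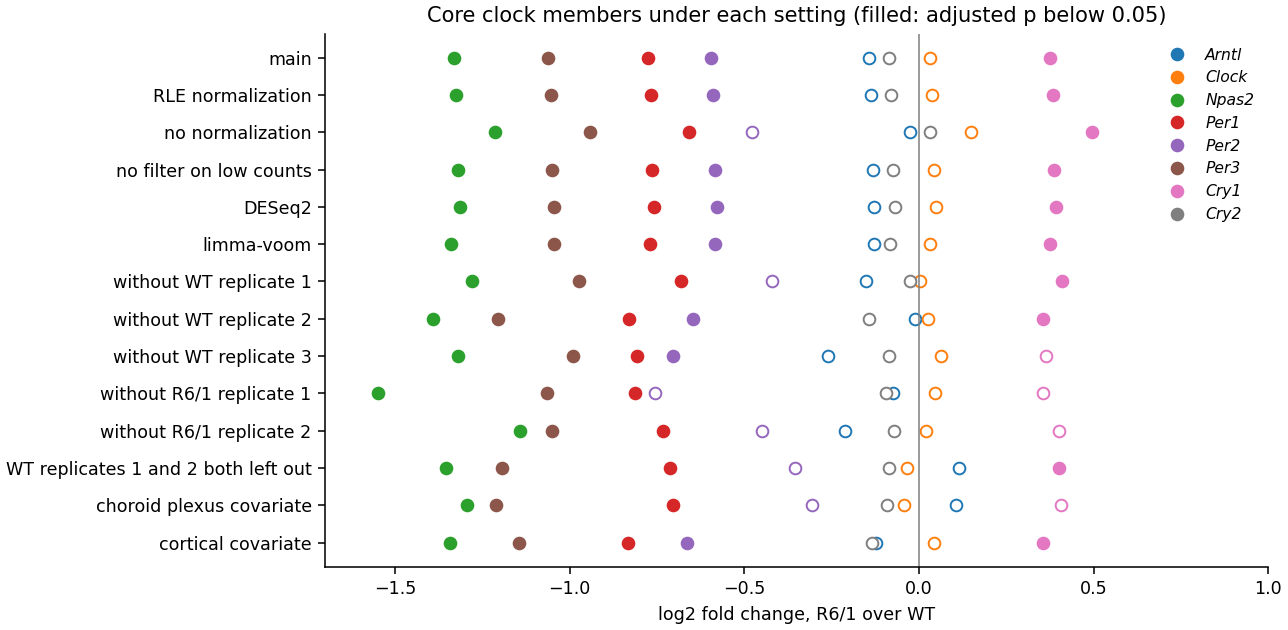
Log2 fold change of R6/1 over WT (x axis) of the 8 core clock genes with the settings of the report and 13 alternatives (y axis), with filled points where the adjusted p is below 0.05. Npas2, Per1 and Per3 are filled in every row, Per2 and Cry1 in some, and Arntl, Clock and Cry2 in none.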

How the data were processed

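Per the file headers, the table holds raw counts of reads for 26369 Ensembl genes in 5 libraries. Beside them stand the authors' normalized signal, which equals the deposited counts over 1 factor for each library, and the same signal divided by gene length. The authors' log2 fold changes and p-values, per the file headers, are quoted only as the authors' deposited table. The submitters' processing notes name CASAVA 1.8.2, TopHat 1.4.1, HTSeq 0.5.4p3, DESeq2 1.0.19 and mm9; the annotation release is not given in the sources used here.

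Counts were tested with edgeR 4.0.16 (R 4.3.3; TMM, filterByExpr with minimum count 10 and total 15, genotype alone) over all genes. SE is the one implied by F, and 95% intervals use the fit's total degrees of freedom. DESeq2 1.42.0 and limma 3.58.1 (voom), other scalings, no filter, left-out libraries and 2 marker covariates were alternatives. Replicates of a group differed beyond sampling noise (chi-square per gene 11.5 to 20.0). Separate animals are not stated in the labels, so the p-values reflect only how these libraries vary, possibly for technical reasons. The edgeR fit was tested on simulated data. Members and lists were chosen with earlier results of these data known. Of 99 list entries, 95 matched by symbol and 4 by Ensembl identifier. The text names all members, up to 3 called genes per list by p, the uncalled gene with the highest mean log2 CPM, and the 3 genes nearest to the members with the lowest and highest log2 fold change. Noct, Nono and Prmt5 of the lists are covered by counts only. A planned comparison of the members' proteins was not run. Some genes of the lists enter the counts and are otherwise not reported here.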

Additional observations from a re-analysis of the deposited data

How the results depend on the processing

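With 1 library left out, genes called numbered 1088 to 4853 in place of 3882, core members called 3 to 5 in place of 5 and clock-linked genes called 7 to 19 in place of 20; the log2 fold change of Per2 was -0.76 to -0.42 and that of Cry1 0.35 to 0.41. Without normalization, Per2 was at -0.48 (edgeR adjusted p = 0.0763) and Cry2 changed sign to 0.032, while the median of all genes moved up by 0.12. With WT replicates 1 and 2 both left out, 13 clock-linked genes were called, Per2 was at -0.36, and the uncalled Arntl (0.12) and Clock (-0.034) changed sign; the lone WT library is then taken to have the spread of R6/1. With the choroid plexus covariate, 1579 genes, 3 core members and 8 clock-linked genes were called; Per2 was at -0.31, Cry1 at 0.41, Arntl at 0.11 and Clock at -0.043. The fits with fewer libraries or a covariate have fewer residual degrees of freedom. Npas2, Per1 and Per3 kept direction and call in all 13 alternatives, and none of the 6 ratios changed sign with a library left out, an alternative added after seeing the data. No paired analysis was possible because the labels give no replicate numbers shared by the groups.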

Other observations

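The short length used for Npas2 in the deposited signal per kb is not the only one of its kind. Among 24284 genes with a deposited length and a GENCODE M21 transcript, the longest transcript was at least 5 times the deposited length for 5.65%, and 277 genes were at least as far apart as Npas2. The median of that ratio was 1.17.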
